A study of Mus musculus with 4 samples.

Results

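Bile duct spots are the capture spots of 4 mouse liver sections in which transcripts of bile duct epithelium were counted, compared here with the other spots of the same periportal territory. Of 8252 spots in all, 8246 held at least 500 UMIs (unique molecular identifiers, each standing for 1 captured transcript). Each section was first restricted to the 50% of spots with the higher zone score, log2((Cyp2f2 + 1)/(Cyp2e1 + 1)) of raw UMIs, where Cyp2f2 is a periportal and Cyp2e1 a pericentral enzyme of hepatocytes. Within these 4121 spots, 373 had a sum of at least 2 UMIs over Epcam, Krt19, Krt7 and Sox9 and were taken as duct spots. The 2986 spots with a sum of 0 served as other periportal spots, and the 762 spots with a sum of 1 entered neither class. The members were therefore chosen by measured values, so the 4 defining genes, Cyp2f2 and Cyp2e1 were left out of every test.

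Bile ducts are tubes lined by cholangiocytes, epithelial cells that modify bile by secreting bicarbonate and water and by reabsorbing solutes. They run in the portal tracts beside a branch of the portal vein, a branch of the hepatic artery and lymphatic vessels, in a sheath of collagen made by portal fibroblasts. In injured liver, cholangiocytes can multiply in a ductular reaction, and Notch and YAP signalling are known to favour the biliary fate. A Visium spot is a small circle of tissue that covers several cells, so a duct spot holds cholangiocytes together with their neighbours, and more cells of a type cannot be told apart from more RNA per cell.

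The sections came from fresh frozen livers in 2 groups of 2. MAFL-1 and MAFL-2 were labelled as MAFL, from mice fed WD for 8 weeks, and MASH-1 and MASH-2 as MASH, from mice fed WD for 16 weeks. The labels give neither strain, sex nor age and hold no mice on another diet. They do not say whether sections of a group came from separate mice, so p-values here measure the spread between sections. In edgeR's fit of duct against other spots, that spread was pooled over genes for 11953 of 12591 genes tested (94.9%). In the fit of the interaction with group it was pooled for 12182 (96.8%). Very small edgeR p-values of such genes therefore do not rest on the gene's own spread between sections. The diet's length and the model's label change together and cannot be told apart. Kept spots held 32249289 to 63808230 UMIs per section, with medians of 15430.5 to 25291 UMIs and 3204.5 to 4150 genes per spot.

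Duct spots were unevenly spread over the sections, which limits how far each supports the comparison. MAFL-1 had 37, MAFL-2 had 38, MASH-1 had 88 and MASH-2 had 210 duct spots, and their summed counts came to 586946, 971243, 2778478 and 7866215 UMIs. The other periportal spots of each section summed to 12561826 to 26808357 UMIs. Duct spots were also deeper than other spots in 3 of the 4 sections. The median UMIs per spot were 14543 in duct against 15148 in other spots of MAFL-1, and 25630.5 against 21003.5 in MAFL-2. They were 32839.5 against 29392 in MASH-1 and 36440 against 24122.5 in MASH-2. Their zone score was also higher in 3 sections, with medians of 0.241 against 0.344 in MAFL-1, -0.624 against -0.820 in MAFL-2, -0.380 against -1.81 in MASH-1 and 0.0710 against -1.03 in MASH-2. Because of both differences, the comparison was repeated with other spots matched to the duct spots on total UMIs and zone score together, a setting added after the data were seen, and its values stand beside the results below.

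The rule for duct spots rests on few molecules. Most duct spots showed 2 of the 4 defining genes, namely 70.3% in MAFL-1, 63.2% in MAFL-2, 61.4% in MASH-1 and 55.7% in MASH-2. Sox9, a transcription factor of cholangiocytes, was seen in 67.6% to 79.0% of duct spots and Epcam, an epithelial adhesion protein, in 56.8% to 70.5%. The highest sums in a single spot were 5, 8, 8 and 10 UMIs. Duct spots with exactly 2 UMIs, just inside the threshold, numbered 29, 28, 58 and 101, and spots with 1 UMI, just outside it, numbered 152, 160, 205 and 245. Levels of genes that the rule did not use stepped up between these neighbours. For Cd24a, a surface glycoprotein of cholangiocytes, spots with a sum of 1 held 12.3, 9.2, 7.4 and 10.5 CPM (UMIs scaled to a common total) in the 2 MAFL and then the 2 MASH sections, the order kept throughout, and spots with a sum of 2 held 33.0, 12.4, 17.2 and 23.5. For Mgp, a matrix protein that inhibits calcification, the values were 20.6, 8.1, 8.1 and 6.6 at a sum of 1 and 44.0, 22.1, 34.3 and 15.4 at a sum of 2. Both genes were higher at 2 than at 1 in all 4 sections.

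**Figure D1:**
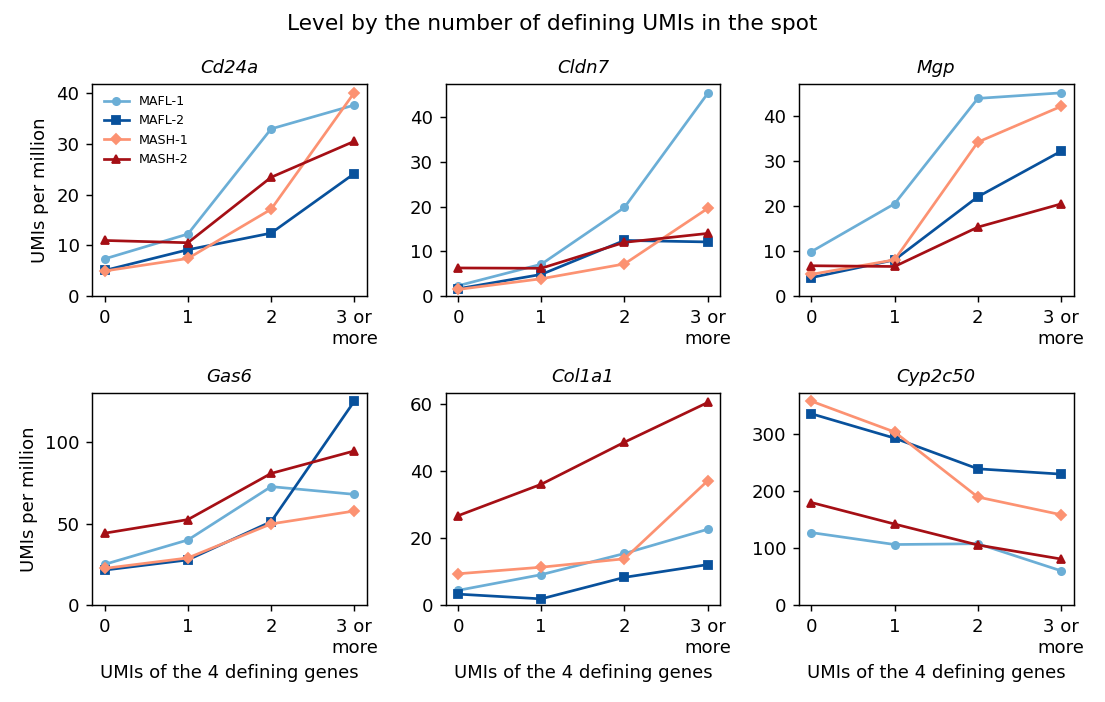
Level in CPM (vertical axis, from 0) of 6 genes left out of the rule, against the UMIs of the 4 defining genes in the spot (horizontal axis), with 1 line per section and each point a sum over all periportal spots of that class. In all 4 sections Cd24a, Mgp and Gas6 were higher at a sum of 2 than at 1, and Cyp2c50 was lower at 3 or more than at 0.

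The promoters of 4 genes of duct epithelium are shown because their transcripts were held out of the rule and were among the most raised in duct spots. They are the genes with the largest differences, among those with a RefSeq promoter entry, in the list of duct epithelium (Cldn4, a tight junction claudin, and Prom1, an apical membrane glycoprotein) and in that of duct transcription factors (Elf3 and Sox4), chosen after their values were seen. Each sequence is the 250 bases before the start in the GRCm38.p6 assembly, read 5′ to 3′ on the gene's strand, which is the minus strand in all 4. Cldn4 lies at chr5:134946935-134947184, Prom1 at chr5:44101737-44101986, Elf3 at chr1:135258473-135258722 and Sox4 at chr13:28953700-28953949. Capitals mark matches on either strand to 3 of the 4 motifs searched, the ETS core GGAAGT, the GRHL motif AACCNGTT and the TEAD motif GGAATG.
Cldn4: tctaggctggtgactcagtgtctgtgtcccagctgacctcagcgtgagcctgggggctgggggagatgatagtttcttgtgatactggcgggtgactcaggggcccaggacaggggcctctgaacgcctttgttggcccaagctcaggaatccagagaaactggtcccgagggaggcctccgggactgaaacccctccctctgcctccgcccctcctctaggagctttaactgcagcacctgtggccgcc
Prom1: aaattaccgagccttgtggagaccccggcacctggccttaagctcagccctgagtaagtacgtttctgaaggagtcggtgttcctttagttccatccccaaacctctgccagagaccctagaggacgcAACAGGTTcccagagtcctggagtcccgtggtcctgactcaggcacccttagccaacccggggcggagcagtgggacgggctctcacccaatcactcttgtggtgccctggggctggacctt
Elf3: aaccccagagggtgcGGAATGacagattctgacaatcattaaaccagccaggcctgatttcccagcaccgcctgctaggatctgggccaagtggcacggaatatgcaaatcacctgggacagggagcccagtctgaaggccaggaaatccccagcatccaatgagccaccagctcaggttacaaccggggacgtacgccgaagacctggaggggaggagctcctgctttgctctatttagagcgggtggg
Sox4: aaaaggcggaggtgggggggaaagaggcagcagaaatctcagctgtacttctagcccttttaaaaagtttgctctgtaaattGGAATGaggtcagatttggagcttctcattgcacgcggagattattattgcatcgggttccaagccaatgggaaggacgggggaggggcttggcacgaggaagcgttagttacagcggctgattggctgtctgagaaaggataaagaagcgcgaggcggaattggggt
The Prom1 promoter held the letters AACAGGTT of the GRHL motif, beginning 122 bases before the start. Those of Elf3 and Sox4 held the TEAD letters GGAATG, beginning 235 and 168 bases before it. None of these 3 motifs was in the Cldn4 window, which says only that these letters are not there. Over the 15 of 20 raised duct epithelium and duct transcription factor genes that had a promoter entry, the GRHL motif was in 2 (Prom1 and Rab25) and the TEAD motif in 3 (Cldn7, Elf3 and Sox4). The ETS core was in 3 (Cldn7, Krt8 and Spint1). Of all 27025 promoters of the same length, 1.71% held the GRHL motif, 12.6% the TEAD motif and 20% the ETS core. With so few promoters these matches are a description of the letters and not of binding.

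The size of the difference in share between the groups depended on depth, and so did its direction once spots were thinned to 5000 UMIs. With all UMIs, duct spots were more common in the MASH sections, most of all in MASH-2. They made up 3.64% of periportal spots in MAFL-1 (95% exact binomial interval 2.57 to 4.98), 4.04% in MAFL-2 (2.88 to 5.51), 7.14% in MASH-1 (5.77 to 8.73) and 22.6% in MASH-2 (19.9 to 25.4). The group means were 3.84% ± 0.289 (SD, n = 2) for MAFL and 14.9% ± 10.9 (SD, n = 2) for MASH, a difference of 11.0 percentage points that rests mostly on MASH-2. With 2 sections against 2 an exact two-sided permutation test cannot go below p = 0.33, so none was made. When spots were thinned at random to 10000 UMIs, leaving out the 152, 50, 78 and 50 shallower ones, the shares were 1.96%, 1.01%, 1.99% and 5.45%, with group means of 1.49% and 3.72%. At 5000 UMIs, which left out 11 to 29 spots a section, they were 1.21%, 0.324%, 0.166% and 1.09%, on 2 to 12 duct spots a section. MASH-2 was highest at 10000 UMIs, whereas MAFL-1 was highest at 5000, where the difference of the group means was -0.138 points. Taken over all periportal spots without any threshold, the 4 defining genes made up 14.9, 12.7, 12 and 30.4 CPM in the sections taken in the same order. On this measure MASH-2 alone stood above the others, and MASH-1 was the lowest. The intervals cover counting error only.

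**Figure D2:**
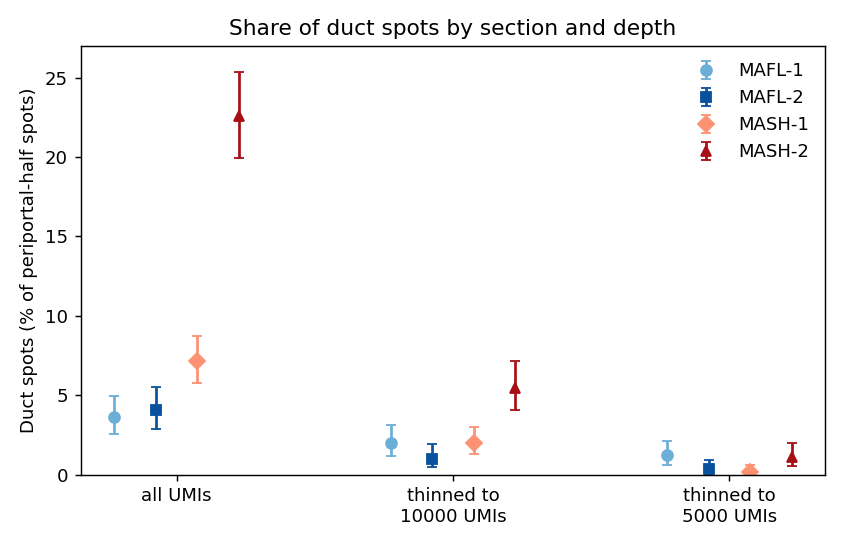
Share of periportal spots that were duct spots (vertical axis, percent) in each of the 4 sections, with all UMIs and after thinning the spots that reached 10000 or 5000 UMIs to that depth; bars are 95% exact binomial intervals. MASH-2 stood at 22.6% with all UMIs and at 1.09% after thinning to 5000 UMIs, where MAFL-1 was at 1.21%.

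To ask what else the duct territory expressed, counts were summed over the duct spots and over the other periportal spots of each section and compared by edgeR's quasi-likelihood test with the section as a block, with adjusted p-values by Benjamini-Hochberg over all genes tested. Of 12591 genes tested, 1102 (8.75%) passed an adjusted p of 0.05, 486 (3.86%) higher and 616 (4.89%) lower in duct spots. The 2 directions differed in size and in level. The raised genes had a median log2 difference of 0.88, and 209 of them were past 2-fold, while the lowered genes had a median of -0.263, and 5 were past 2-fold. Of the lowered genes, 385 had a mean of at least 100 CPM, and of the raised genes 26 did. Raised genes numbered 129 under 3 CPM and 174 at 3 to 10 CPM, against 2 and 28 lowered genes. The part of level in the sizes was not tested. The same direction was seen in all 4 sections for 368 of the raised and 572 of the lowered genes. The split between directions depended on scaling: with library totals alone in place of TMM factors, which moved the median of all genes from -0.02 to 0.06, 762 genes were higher and 265 lower. Against the matched other spots, 578 of 9103 genes (6.35%) were called, 292 higher (3.21%) and 286 lower (3.14%). Of the 486 raised genes only 346 were tested there, and 236 were also raised (48.6% of the 486), which is 80.8% of the 292. Of the 616 lowered genes 608 were tested there, and 264 were also lowered (42.9% of the 616), 92.3% of the 286. Without MASH-1 the calls numbered 521 and without MASH-2 they numbered 711.

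The genes raised most, among those averaging 10 CPM or more and differing in 1 direction across all 4 sections, included matrix proteins, epithelial proteins and secreted signals. Mgp led them, a secreted matrix protein (chr6:136872435-136875823). Its level was 41.6 CPM in duct against 10.4 in other spots of MAFL-1, 24.7 against 4.49 in MAFL-2, 35.8 against 5.05 in MASH-1 and 17.5 against 6.74 in MASH-2. No duct value overlapped any value of other spots, and the log2 difference was 2.15 (SE 0.15, edgeR adjusted p = 6.5e-43). Pdzk1ip1, a membrane-associated epithelial protein, followed with 1.81 (SE 0.15) and 30.4, 22.6, 18.7 and 24.6 CPM in duct spots against 4.88, 4.98, 3.88 and 10.4. Cd24a (chr10:43579169-43584265) stood at 32.0 against 7.73, 15.4 against 5.53, 24.3 against 5.17 and 26.3 against 10.9 CPM, a log2 difference of 1.67 (SE 0.14). The other 9 of the 12 highest were Dpt (1.44), Adamtsl2 (1.41), Tmsb10 (1.27), Smoc2 (1.21), Col6a3 (1.2), Gpx3 (1.19), Gas6 (1.13), Ccl19 (1.11) and Mfge8 (1.09), given as log2 differences. Dpt, Adamtsl2, Smoc2 and Col6a3 encode matrix proteins or their modifiers, Gas6 is a ligand of the receptor tyrosine kinase Axl, and Ccl19 is a chemokine for T cells and dendritic cells. Gas6 was at 67.1, 70.0, 50.7 and 85.0 CPM in duct spots and at 26.3, 23.4, 23.5 and 44.0 in other spots, with no overlap. The differences of all 12 also passed against matched other spots, from 0.93 (Mfge8) to 2.25 (Mgp). Of the 24 alternatives, 6 ended the call of Tmsb10 (highest edgeR adjusted p = 0.194), 5 that of Ccl19 (highest adjusted p = 0.418) and 2 that of Dpt, and the other 9 genes kept theirs. All 3 calls ended without MAFL-1, and that of Tmsb10 also without MASH-1.

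**Figure D3:**
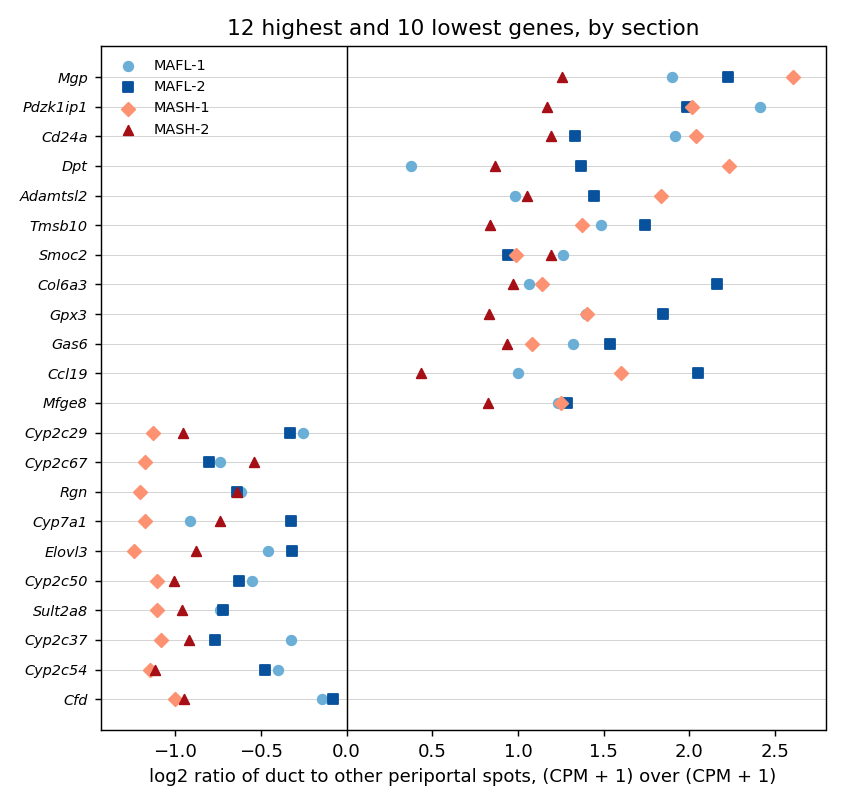
The log2 ratio of duct to other periportal spots (horizontal axis, CPM + 1 over CPM + 1) in each section for the 12 highest and 10 lowest genes named by the rule. All 4 sections lie above 0 for each of the 12 highest genes and below 0 for each of the 10 lowest, and MASH-2 has the smallest ratio of the 4 sections for Mgp, Cd24a and Mfge8.

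Genes of duct epithelium that the rule had not used were raised as a group, which is a check of the label. Of 22 listed adhesion and cytoskeleton genes 21 were tested, 16 rose (76.2% of those tested, against 3.86% of all genes) and none fell, with a median log2 difference of 1.02 against -0.02 over all genes. Against matched other spots 10 of 17 rose. Cldn7, a tight junction claudin (chr11:69964779-69967886), was at 24.0 CPM in duct against 2.44 in other spots of MAFL-1, 12.3 against 1.80 in MAFL-2, 11.1 against 1.55 in MASH-1 and 12.6 against 6.27 in MASH-2. Every duct value lay above every other value, and the log2 difference was 2.0 (SE 0.22, edgeR adjusted p = 9.9e-15), though limma-voom and edgeR's newer quasi-likelihood method did not call it (highest adjusted p = 0.151). At least 1 Cldn7 UMI was counted in 29.7%, 23.7%, 25% and 32.9% of duct spots and in 3.50%, 3.50%, 4.15% and 13.7% of other spots. Of the 4 sections MASH-2 thus held the most of this duct transcript in spots with none of the 4 defining genes. Tspan8, a tetraspanin, rose by 1.98 (SE 0.19) and Plet1, a surface glycoprotein of progenitor and duct cells, by 1.93 (SE 0.19). Cldn4 (2.67) and Prom1 (2.22) were among the largest differences, but on few molecules, with 1, 1, 5 and 22 Cldn4 UMIs in the duct spots of the 4 sections. Prom1 had 7, 11, 20 and 51. Keratins that hepatocytes also express differed less: Krt8 rose by 0.32 (318, 258, 276 and 386 CPM in duct spots against 207, 202, 258 and 309), and Krt18 by 0.16 on an adjusted p of 0.0483 by edgeR. Krt18 was lower in the duct spots of MAFL-2 (235 against 246 CPM) and higher in the other 3 sections. Cldn3, a claudin that hepatocytes share, had a log2 difference of 0.05 (edgeR adjusted p = 0.764).

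Some transcription factors of duct cells were raised. Of 7 tested, 4 rose (against 3.86% of all genes) and none fell, and the log2 difference was above 0 for 5 of the 7. Sox4 stood at 14.4, 5.15, 5.90 and 17.9 CPM in duct spots and at 2.04, 2.21, 1.75 and 8.09 in other spots, a log2 difference of 1.42 (SE 0.21). It was higher in duct spots of each section, but the MASH-2 other spots exceeded the duct spots of MAFL-2 and MASH-1. Elf3 and Ehf, ETS factors of epithelia, rose by 2.20 (SE 0.46) and 2.38 (SE 0.50) on 3, 4, 4 and 29 Elf3 UMIs and 3, 1, 8 and 23 Ehf UMIs in duct spots. Onecut1, Onecut2 and Klf5 did not pass, and Grhl2, with 0, 0, 2 and 3 UMIs, was too low to be tested.

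Genes of bile modification were partly raised. Of 14 listed, 12 were tested, 3 rose and none fell, where 3.86% of all genes rose and 4.89% fell. Slc5a1, an apical glucose cotransporter, was at 6.39, 10.3, 7.29 and 7.6 CPM in duct spots and at 2.36, 0.968, 1.28 and 3.89 in other spots, with no overlap and a log2 difference of 1.74 (SE 0.27). Atp1b1, a subunit of the sodium pump, rose by 0.46 (SE 0.08), and the calcium-activated potassium channel gene Kcnn4 by 1.70 (SE 0.37, on 2, 1, 13 and 38 UMIs). Cftr, the chloride channel of duct bicarbonate secretion, had a log2 difference of 2.26 on 1, 1, 2 and 8 UMIs and did not pass (edgeR adjusted p = 0.075). Aqp1, a water channel that endothelium also expresses, differed by -0.04. Of 8 genes of the primary cilium and of polycystic disease, 3 rose and none fell. These were Bicc1, an RNA-binding protein (1.57, SE 0.19), the cilium protein gene Cys1 (0.91, SE 0.22) and Pkhd1, which encodes fibrocystin (1.11, SE 0.31). Pkhd1 rested on 1, 3, 22 and 34 UMIs in duct spots. Its call ended in 7 of the 20 alternatives that tested it, and that of Cys1 in 4 of 23. Bicc1 was at 19.2, 11.3, 9.37 and 17.6 CPM in duct spots against 3.66, 2.0, 2.29 and 8.49, again with no overlap.

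Secreted and mucosal products were raised in part. Of 10 tested, 6 rose, 1 fell and 3 did not pass, where 3.86% of all genes rose and 4.89% fell. Mmp7, a metalloprotease of injured duct epithelium, rose by 1.72 (SE 0.23), with 6.39, 2.06, 7.29 and 17.6 CPM against 1.22, 0.415, 1.05 and 7.14. Muc1, a membrane mucin, rose by 1.65 (SE 0.30) and Sftpd, a collectin, by 1.51 (SE 0.31). Tff2 (1.95), Tff3 (0.44) and Lcn2 (0.35) also rose. Tff3 rested on MASH-1, with 35.4 against 15.1 CPM there, and stood at 46.4 against 49.5 in MAFL-1. Pigr, the receptor that carries IgA into bile and that hepatocytes of the mouse express, fell by 0.26 on the log2 scale, and its duct level was the lower of the pair in all 4 sections.

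Spp1, which encodes osteopontin and is secreted by cholangiocytes and by some macrophages (chr5:104435111-104441053), was higher in the duct spots of every section, by less in MASH-2, and did not pass. It was at 467 CPM in duct against 83.0 in other spots of MAFL-1, 378 against 63.0 in MAFL-2, 437 against 77.9 in MASH-1 and 566 against 222 in MASH-2. The means were 462 ± 78.5 CPM (SD, n = 4 sections) in duct and 112 ± 74.4 in other spots, with no overlap. The log2 difference was 2.15 (SE 0.33, edgeR adjusted p = 0.0708). The log2 ratios were 2.48, 2.57, 2.47 and 1.34, the last that of MASH-2. Without MASH-2 the difference was 2.56 and passed, as it did with DESeq2 (adjusted p = 4.79e-11) and against matched other spots (1.65, edgeR adjusted p = 0.0299). Spp1 UMIs were counted in 91.9%, 89.5%, 97.7% and 98.6% of duct spots, and in 51.4%, 51.9%, 67.4% and 93.7% of other spots.

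Some signalling genes linked to the biliary fate rose, where 3.86% of all genes did. The median log2 differences were 0.36 for Notch, 0.30 for YAP and 0.57 for ductular reaction genes, against -0.02 over all genes. Against matched other spots these medians were 0.20, 0.29 and 0.03. Of 13 Notch pathway genes tested 3 rose and none fell, namely the receptor gene Notch3 (1.2, SE 0.34) and the targets Hes1 (0.37, SE 0.11) and Heyl (1.15, SE 0.38). Jag1, a Notch ligand, differed by 0.52 (edgeR adjusted p = 0.19), and none of the 6 genes tested against matched other spots passed. Of 11 YAP pathway genes, Ankrd1, a YAP target (2.49 on 1, 2, 6 and 15 UMIs), and Ajuba, a LIM protein (0.79), rose. Of 11 ductular reaction genes, the integrin chains Itgb8 (2.42 on 4, 3, 5 and 22 UMIs) and Itgb6 (2.99 on 0, 1, 5 and 3 UMIs) rose, and Cd44 differed by -0.11. Without MASH-1 none of the Notch genes was called and 1 in each of the other lists, whereas without MASH-2 the Notch list had 4.

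The sheath of the duct was raised with it. Of 10 portal fibroblast genes tested, 6 rose and none fell, with a median log2 difference of 1.09, and 5 of 9 rose against matched other spots. The shares of all genes raised were 3.86% and 3.21% in these 2 comparisons, and 4.89% of all genes fell in the first. Mfap4, a microfibril protein, was at 7.99, 6.18, 9.03 and 6.74 CPM in duct spots against 2.69, 1.31, 1.2 and 2.46, with no overlap and a log2 difference of 2.03 (SE 0.27). Dpt, dermatopontin, was at 7.99, 9.26, 20.8 and 20.5 CPM against 5.94, 2.97, 3.65 and 10.8 (1.44, SE 0.17). The elastic fibre genes Fbln2 (1.52, SE 0.25), Fbln1 (1.26, SE 0.21) and Eln (1.37), and Cd34 (0.92), also rose, while Thy1, Entpd2, Fbn1 and Gas1 did not pass. Of 21 collagen and matrix genes tested, 16 rose and 1 fell, Fn1, which hepatocytes make in quantity. Col1a1, the chain of fibrillar collagen I, was at 16.0 CPM in duct against 4.64 in other spots of MAFL-1, 9.26 against 3.59 in MAFL-2, 21.2 against 9.75 in MASH-1 and 53.0 against 26.6 in MASH-2. It was higher in the duct spots of every section (1.08, SE 0.12), while the MASH-2 other spots exceeded the duct spots of the 3 other sections. Col3a1 rose by 0.89 (SE 0.09), Bgn, a small proteoglycan, by 0.58 (SE 0.06), and Loxl1, an elastin crosslinker, by 1.45. Without MASH-2 10 of 21 matrix genes rose, and by DESeq2 10 of 21.

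Other mesenchymal lists did not move as a whole. Of 11 stellate cell genes 2 rose and 1 fell, with a median of 0.00, where 3.86% of all genes rose and 4.89% fell. Pdgfrb, a growth factor receptor gene, rose by 0.56 (SE 0.19), and Ecm1 fell by 0.28 on the log2 scale. Of 6 smooth muscle genes Tagln alone rose (0.98, SE 0.17), with 6.39, 8.23, 14.2 and 17.9 CPM against 5.94, 2.28, 4.93 and 11.1. Of 7 markers of the liver's outer mesothelium, Gpm6a alone was tested and rose (1.63 on 1, 8, 8 and 34 UMIs). Msln and Upk3b, which define that layer, had no more than 6 UMIs in the duct spots of any section and none outside MASH-2.

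Vessel genes split by the kind of vessel. Of 9 portal and arterial endothelium genes 5 rose and none fell, where 3.86% of all genes rose and 4.89% fell. Vwf, von Willebrand factor, was at 16.0, 20.6, 10.1 and 11.8 CPM in duct spots against 7.08, 5.18, 6.18 and 9.52, with no overlap (0.75, SE 0.18). Ltbp4, which binds latent TGF-beta, was at 51.2, 46.3, 67.0 and 75.2 CPM against 37.6, 33.5, 48.6 and 60.9 (0.39, SE 0.08), and Cldn5, Ly6c1 and Adgrg6 also rose. Without MAFL-2, MASH-1 or MASH-2, each in turn, 2 of the 9 rose. Of 10 sinusoidal endothelium genes none rose and 4 fell: Clec4g, a lectin, by 0.37, Kdr, a VEGF receptor, by 0.41, Oit3 by 0.47 and Bmp2 by 0.53 on the log2 scale. None of the 10 was called without MASH-2, and 1 was without MASH-1. Of 4 lymphatic genes Mmrn1 rose (1.90 on 2, 2, 8 and 7 UMIs). Ccl21a, a chemokine of lymphatic endothelium, had the largest difference (2.04) but did not pass, and 1 spot held 61.2% of its 49 UMIs in the duct spots of MAFL-1. Its reads may be shared with near-identical copies of the gene, so its count is uncertain. Transcripts of 5 red blood cell genes (4 globins and Alas2, of haem synthesis) summed to 5416 CPM in duct against 2833 in other spots of MAFL-1, 5047 against 2357 in MAFL-2, 7337 against 3673 in MASH-1 and 991 against 1464 in MASH-2. None of the 5 passed, and the direction was turned in MASH-2. Their part in the vessel results was not tested.

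Kupffer cell genes, of the resident macrophages, were lower in duct spots. Of 10 Kupffer cell genes none rose and 6 fell, in both the full and the matched comparison, with a median of -0.33. The shares of all genes lowered were 4.89% in the full and 3.14% in the matched comparison. Clec4f, a lectin of Kupffer cells, was at 71.9 CPM in duct against 102 in other spots of MAFL-1, 99.8 against 135 in MAFL-2, 135 against 164 in MASH-1 and 112 against 150 in MASH-2 (-0.39, SE 0.07). Each duct value was the lower of its pair. Cd5l, an apoptosis inhibitor secreted by these cells, fell by 0.37, the scavenger receptor gene Marco by 0.72 and Timd4, a phosphatidylserine receptor, by 0.87 on the log2 scale. Marco went the other way in MAFL-2 (36.0 against 26.1 CPM). DESeq2 called 2 of the 10. The complement genes C1qa, C1qb and C1qc, which other macrophages share, differed by -0.02, -0.06 and -0.08.

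Of 10 genes of lipid-associated macrophages 5 rose and none fell, where 3.86% of all genes rose, but the list rested on MASH-2. Cd63, a lysosomal tetraspanin that many cells express, was at 43.2, 34.0, 63.9 and 131 CPM in duct spots against 16.1, 10.6, 34.1 and 74.5 (0.95, SE 0.09) and was higher in every section. Gpnmb, a glycoprotein of such macrophages, was at 1.60, 1.03, 13.9 and 68.1 CPM against 0.326, 0.484, 16.9 and 39.6 (0.54, SE 0.11), so that its call came from MASH-2. Lgals3 rose by 0.26, with 30.6 against 33.3 CPM in MASH-1 and 82.8 against 61.7 in MASH-2. Without MASH-2 the differences were -0.19 for Gpnmb and -0.05 for Lgals3, and 2 of the 10 rose. Trem2, a receptor of these macrophages, had a log2 difference of 0.35 (edgeR adjusted p = 0.125). Of 12 monocyte and macrophage genes 4 rose and none fell: S100a4 (0.97, SE 0.19), the chemokine receptor gene Ccr2 (1.23, SE 0.28), Ms4a7 (0.84, SE 0.20) and Lyz2, lysozyme (0.22, SE 0.06). Without MASH-2 2 of the 12 rose.

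Lymphocyte transcripts were sparse, and the counts below stand beside 3.86% of all genes raised. A single raised gene in a list of 8 or 13 cannot be set apart from that share. Of 9 T and NK cell genes Gzma, a granzyme (1.17 on 0, 4, 13 and 20 UMIs), and the chemokine gene Ccl5 (0.36) rose, and none of the 9 did without MAFL-2 or without MASH-1. Of 5 B and plasma cell genes 2 rose, and none without MASH-2. These were Jchain, the joining chain of IgA and IgM (1.14, with 3.20, 4.12, 10.4 and 20.2 CPM against 3.26, 3.52, 7.19 and 6.11), and Ighm (1.06, with 0, 6, 16 and 212 UMIs in duct spots). Single spots held 60.0% of the Jchain UMIs of MASH-1 and 29.7% of those of MASH-2, and 1 spot held 140 of the 212 Ighm UMIs of MASH-2 (66.0%). For Gzma, single spots held 3 of 4, 6 of 13 and 10 of 20 UMIs in MAFL-2, MASH-1 and MASH-2. Of 8 dendritic cell genes Xcr1 rose (1.84 on 4, 1, 5 and 10 UMIs), and of 13 chemokines and cytokines Cxcl16 rose (0.40, SE 0.10). Of 3 neutrophil genes S100a8 alone rose (0.71 on 2, 10, 7 and 103 UMIs), and 1 spot held 23 of the 103 in MASH-2. Without MASH-2 its difference was 0.31, and that of S100a9, which did not pass, was -0.56. Of 8 proliferation genes Stmn1 rose at an edgeR adjusted p of 0.0499 (0.43, SE 0.15), a call that 17 of the 24 other settings did not make.

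Pericentral hepatocyte genes had the lowest median of the hepatocyte lists. Of 12 pericentral genes none rose and 11 fell (4.89% of all genes fell), with a median of -0.64. Rgn, regucalcin, was at 95.9 CPM in duct against 147 in other spots of MAFL-1, 156 against 245 in MAFL-2, 202 against 466 in MASH-1 and 133 against 208 in MASH-2 (-0.83, SE 0.06). Cyp7a1, which sets the rate of bile acid formation, was at 4.80, 44.3, 37.8 and 34.2 CPM against 9.93, 55.7, 86.8 and 57.6 (-0.85, SE 0.09). Both were lower in duct spots of every section. The zone score also differed between the classes, and against other spots matched on it and on total UMIs 4 of 11 pericentral genes fell, with a median of -0.24. The 10 lowest genes by the rule were Cfd (-0.95), Cyp2c54 (-0.94), Cyp2c37 (-0.93), Sult2a8 (-0.92), Cyp2c50 (-0.91), Elovl3 (-0.89), Cyp7a1, Rgn, Cyp2c67 (-0.80) and Cyp2c29 (-0.78). Of these, 5 belong to the Cyp2c family of drug- and fatty acid-metabolising enzymes. Sult2a8, a bile acid sulphotransferase, was at 211, 270, 189 and 110 CPM in duct spots and at 353, 445, 407 and 215 in other spots (SE 0.06, edgeR adjusted p = 1.2e-51). It kept a difference of -0.57 against matched spots. Cfd, complement factor D, had -0.09 (edgeR adjusted p = 0.817) and Cyp2c29 -0.20 (0.0608 by the same test) against matched spots, so that neither call held there.

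Periportal and general hepatocyte genes had medians of -0.09 and -0.13. Of 13 periportal genes 2 rose and 3 fell, against 2 and 7 in the matched comparison (median -0.15) and 3 and 2 with library totals alone (median 0.01). Over all genes 3.86% rose and 4.89% fell, against 3.21% and 3.14% in the matched comparison. Aldh1b1, a mitochondrial aldehyde dehydrogenase that duct cells also express, was at 97.5, 207, 226 and 165 CPM in duct spots against 65.0, 143, 136 and 119 (0.58, SE 0.06), the higher of the pair in all 4 sections. Tstd1 rose by 0.63, though not in MAFL-1 (14.4 against 18.1 CPM), while Cps1, which starts the urea cycle, Pck1 and Pigr fell. Cps1 fell by 0.28 on the log2 scale, with 988, 1489, 1049 and 840 CPM against 1300, 1810, 1287 and 941. Of 12 general hepatocyte genes 6 fell, among them Apob, which fell by 0.20, and Ttr, which fell by 0.16, and none rose. In the matched comparison 9 of 12 fell (median -0.09), and with library totals alone 1 rose and 1 fell, so the calls of this list depend on scaling. The same holds for 8 acute phase genes (1 fell, Itih4; with library totals alone 1 rose and none fell) and for 14 lipogenesis and droplet genes. Of the latter 2 rose and 4 fell, against 4 and 3 with library totals alone and 1 and 1 in the matched comparison. Scd1, the stearoyl-CoA desaturase, fell by 0.23 and Fitm1, a lipid droplet protein, by 0.65 on the log2 scale. Against matched other spots Fitm1 stood at -0.15 (edgeR adjusted p = 0.474) and Scd1 kept its call at -0.11.

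**Figure D4:**
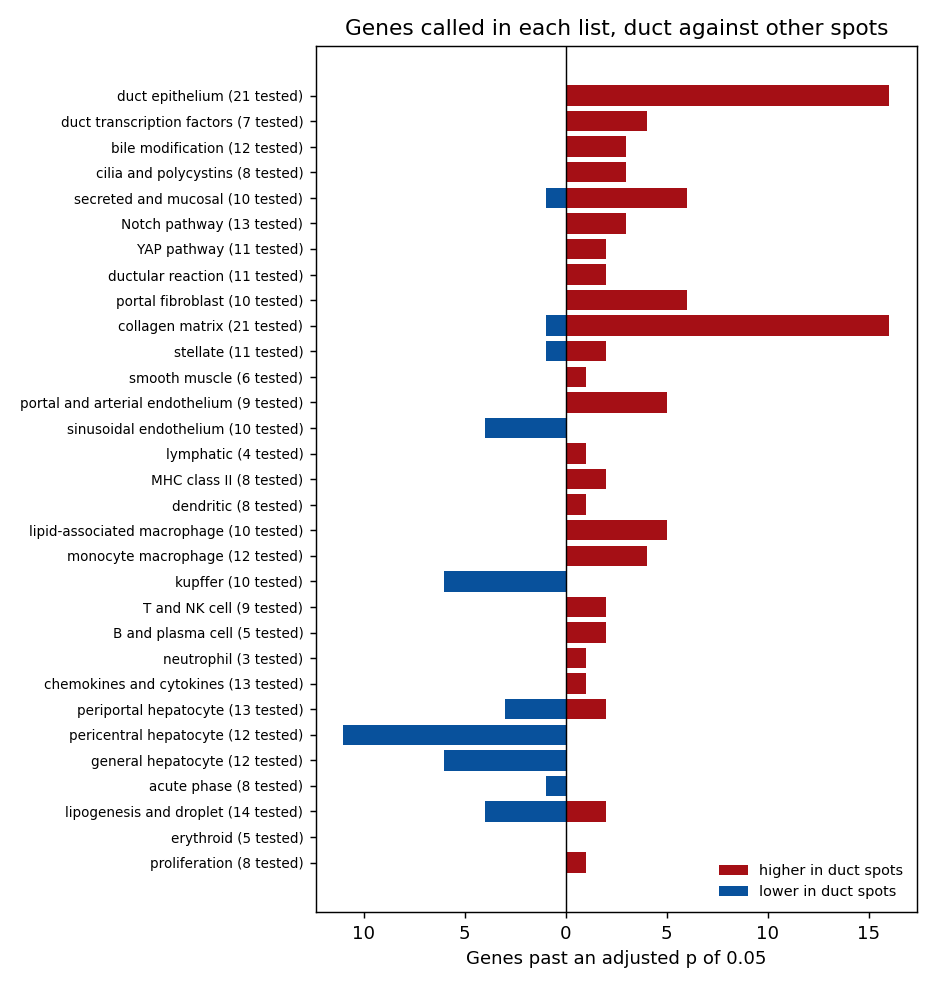
Number of genes past an edgeR adjusted p of 0.05 in each list (horizontal axis, lower in duct spots to the left of 0 and higher to the right), for the lists with at least 3 genes tested. Duct epithelium (16 of 21 higher) and collagen and matrix genes (16 of 21 higher) had the most raised members, and pericentral hepatocyte genes (11 of 12 lower) the most lowered.

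The last comparison asked whether the contrast of duct to other spots differed between MASH and MAFL, through the interaction of class and group. Of 12591 genes 17 (0.135%) passed, 3 (0.0238%) with a higher and 14 (0.111%) with a lower contrast in MASH. Within the groups 447 genes (3.55%) were called in MAFL, 136 higher (1.08%) and 311 lower (2.47%), and 717 (5.69%) in MASH, 338 higher (2.68%) and 379 lower (3.01%). Without MAFL-2 no gene passed the interaction (716 at an unadjusted p under 0.05 by edgeR), and against matched other spots 2 did, Cd74 and Hamp2.

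MHC class II genes, which present antigen, accounted for 4 of the 14 with a lower contrast. Cd74, the invariant chain that escorts class II molecules and also serves as a receptor of the cytokine Mif, was at 150 CPM in duct against 81.2 in other spots of MAFL-1 and 191 against 86.4 in MAFL-2. In the MASH sections it was at 310 against 255 and at 496 against 381. Its log2 difference was 1.04 (SE 0.10) in MAFL and 0.34 (SE 0.06) in MASH, and the contrast was thus lower in MASH by -0.70 (SE 0.12, edgeR adjusted p = 1.1e-05). Both classes were higher in MASH than in MAFL, and the other spots of MASH exceeded the duct spots of MAFL. H2-Eb1, a class II beta chain (chr17:34305867-34316674), was at 76.7 against 33.9, 79.2 against 23.6, 114 against 86.0 and 195 against 146 CPM. Its difference was 1.49 (SE 0.16) in MAFL and 0.41 (SE 0.08) in MASH, an interaction of -1.09 (SE 0.17). A single duct spot of MAFL-2 held 31.2% of the 77 H2-Eb1 UMIs there, and the highest single-spot shares in that section were 21.4% for H2-Ab1, 21.7% for H2-Aa and 19.9% for Cd74. The interaction was -0.79 (SE 0.13) for H2-Ab1 and -0.80 (SE 0.17) for H2-Aa. In the matched comparison it was -0.78 for Cd74 (edgeR adjusted p = 0.0203), -0.86 for H2-Eb1, -0.63 for H2-Ab1 and -0.47 for H2-Aa, and the last 3 did not pass. Over all 8 class II genes 2 rose across the 4 sections, Cd74 and H2-Aa, while 5 were higher in MAFL and 4 in MASH. The shares of all genes raised in these 3 tests were 3.86%, 1.08% and 2.68%. The calls of Cd74 and H2-Aa across all 4 sections were lost under library totals alone (edgeR adjusted p = 0.296 and 0.332), and none of the 8 was called without MAFL-1.

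**Figure D5:**
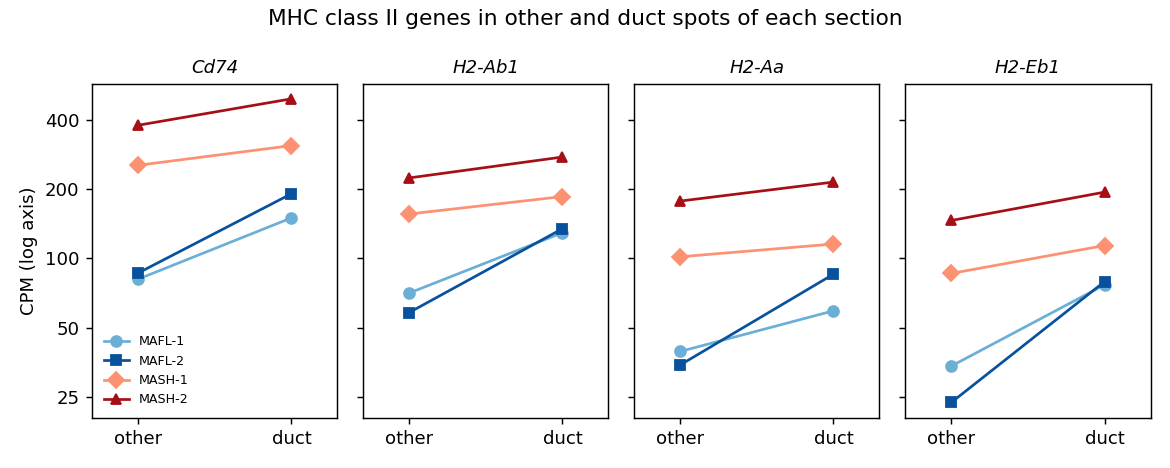
CPM (vertical log axis) of 4 MHC class II genes in other and duct periportal spots, with 1 line per section. Lines rise from other to duct spots in all 4 sections, more steeply in MAFL, and the other spots of both MASH sections lie above the duct spots of both MAFL sections for Cd74, H2-Ab1, H2-Aa and H2-Eb1.

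Other genes also passed the interaction. Of the 24 alternatives, 20 kept the interaction call of Tmsb4x, 18 that of Cyp2c29 and 11 that of Tmsb10. For Cd74, H2-Ab1, H2-Eb1 and H2-Aa these numbers were 23, 20, 19 and 17. The actin-binding thymosin genes Tmsb10 and Tmsb4x were raised in duct spots of both groups, by less in MASH. Tmsb10 was at 166, 155, 218 and 196 CPM against 58.7, 45.7, 83.7 and 109, with an interaction of -0.55 (SE 0.13). Tmsb4x was at 340, 422, 743 and 771 CPM against 227, 224, 628 and 660, with -0.53 (SE 0.10). Cyp2c29 fell further in MASH, by -0.74 (SE 0.13), and was at -0.24 in the matched comparison. Genes with a higher contrast in MASH were Mt1, a metallothionein (0.49, SE 0.10), Hamp2, a hepcidin gene (1.0, SE 0.20), and Igha, the IgA heavy chain. Hamp2 was lower in duct spots of both MAFL sections (7.99 against 12.1 and 60.7 against 88.8 CPM) and higher in those of both MASH sections (37.5 against 33.6 and 57.3 against 37.5). The MAFL-1 duct value was 5 UMIs, and 1 spot held 89 of the 468 UMIs in MASH-2. Spots with 3 or more defining UMIs held more Hamp2 than those with 0 in MAFL too (15.1 against 11.5 and 96.8 against 81.5 CPM). Of the 23 alternatives with an adjusted p for the Hamp2 interaction, 10 ended its call. Igha had 0 and 2 UMIs in the duct spots of MAFL and 147 and 323 in those of MASH, of which single spots held 70 and 125 UMIs, so its fitted interaction of 3.91 (SE 0.62) gives no fold. Ccl21a had an interaction of -1.59 (SE 0.38), which was 0.18 in the matched comparison.

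Of the 8 genes that the study's title or its pathway names, Cd74 and Gpnmb were called higher in the test over all sections, and none lower. In that test 3.86% of all genes were higher. Without MASH-2 the difference of Gpnmb was -0.187, and 15 of the 24 alternatives ended the call of Cd74. Mif, the cytokine, was at 203, 219, 257 and 275 CPM in duct spots and at 228, 248, 267 and 250 in other spots, a log2 difference of -0.03 (SE 0.06, edgeR adjusted p = 0.842). Thrsp, a lipogenic factor of hepatocytes, was at 38.4, 160, 321 and 447 CPM against 29.3, 134, 290 and 419 (0.15, SE 0.06, edgeR adjusted p = 0.104). It was slightly higher in duct spots of each section and did not pass. The chemokine receptor genes Cxcr4 and Ackr3, which also bind Mif, had at most 22 and 11 UMIs in the duct spots of a section.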

How the data were processed

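Gene counts were UMIs per spot over 4 mouse liver sections, deposited by the authors as raw count matrices of 31253 features. Per the submitters' processing notes and the file headers they were made with Space Ranger 1.2.2 against mm10, and no normalization was applied here before summing. Spots under 500 UMIs (6) were left out, and no column was left unused for want of a sample. Sections share slide barcodes (1182 to 1725 per pair), which are positions on the slide and not shared cells. No doublet calling or cell-type deconvolution was run.

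Counts were summed per class and section (8 sums) and tested with edgeR 4.0.16 (quasi-likelihood, TMM, filterByExpr, robust) in R 4.3.3, with the section as a block, and for the group difference with the interaction of class and group. CPM values are TMM-scaled, and those by sum of defining UMIs are scaled by the total alone. Alternatives used DESeq2 1.42.0 and limma 3.58.1, and spots were handled in Python 3.11.15. On simulated counts for the duct contrast (12191 genes), 100 of 100 genes changed 2-fold were recovered, and 14 of 214 calls were false. For the interaction (12363 genes), 66 of 100 changed 2-fold were recovered. In both simulations changes were planted only in genes averaging 10 CPM or more, so recovery of lower genes was not simulated.

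Named genes were the 12 highest and 10 lowest called genes averaging 10 CPM or more with 1 direction in all sections, the 5 smallest p-values per direction of the interaction, up to 4 members per list by p-value, and the title genes with Spp1. The first 2 parts skipped predicted genes, Mup genes, genes of the ribosome, mitochondrion or haemoglobin, and sex-linked ones. Other members are named as examples, chosen after their values were seen. The members, the 33 lists and the tests were chosen with earlier results of these data known. Promoters came from RefSeq (GRCm38.p6). Some members counted in the lists, and 1 of the motifs searched, are not reported here.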

Additional observations from a re-analysis of the deposited data

Results flagged for a closer look

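Among the 22 genes with the highest and lowest differences, 3 had 1 section far from the other three in the log2 ratio of duct to other spots (CPM + 1 over CPM + 1), where chance gives about 1 in 20. Col6a3, a chain of collagen VI, was highest in MAFL-2 at 2.16. Mfge8, a secreted bridging protein, was lowest in MASH-2 at 0.828. Rgn was lowest in MASH-1 at -1.21.

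The duct contrast differed between MASH and MAFL by the interaction test for 11 named genes. It was lower in MASH for the class II genes H2-Eb1 (-1.09), H2-Aa (-0.795), H2-Ab1 (-0.785) and Cd74 (-0.704). It was also lower for Ccl21a (-1.59), Cyp2c29 (-0.745), Tmsb10 (-0.55) and Tmsb4x (-0.534). It was higher in MASH for Igha (3.91), Hamp2 (1.0) and Mt1 (0.494). All 11 calls were lost under at least 1 of the 24 alternatives.

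Spots with at least 2 UMIs of the 4 defining genes also lay on the pericentral side, outside the comparison. They made up 0.884% of that side in MAFL-1 (9 of 1018 spots), 0.212% in MAFL-2 (2 of 941), 0.243% in MASH-1 (3 of 1235) and 4.08% in MASH-2 (38 of 931). MASH-2 was again the highest section.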

How the results depend on the processing

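The count of genes called between duct and other spots (1102) was 649 among genes with a mean of at least 10 CPM, 443 by DESeq2, 646 at a duct threshold of 3 UMIs and 646 without Epcam in the sum. It was 549, 528 and 578 with other spots matched on total UMIs, on zone score and on both, and 521 to 884 with 1 section left out. The interaction count (17) was 38 with library totals alone, 6 by edgeR's newer quasi-likelihood method, 10 by limma-voom, 11 at a threshold of 3, 10 without Krt19, 2 in a narrower zone and 40 with no zone restriction. It was 7, 3 and 2 in the matched settings and 0 to 33 with 1 section left out. The MAFL count (447) was 262 with library totals alone, 125 at a mean of at least 10 CPM, 111 by DESeq2, 189 by the newer method, 208 in the narrower zone and 241 without Epcam. It was 63, 111 and 74 in the matched settings and 23 to 200 with 1 section left out. The MASH count (717) was 147 by DESeq2, 385 at a threshold of 3, 380 without Epcam, 421, 358 and 432 in the matched settings, and 265 to 716 with 1 section left out. With the replicate number as a block the counts were 1087, 28, 514 and 823 for the 4 comparisons. The section numbers showed no pairing (correlation 0.00635 over 6412 genes). The difference in share (11.0 points) was -0.138 at 5000 UMIs, 2.23 at 10000 UMIs and 3.3 to 18.7 with 1 section left out. Signs turned for Mt1 (0.30 with no zone restriction), Cidea (0.13 by DESeq2), the Ccl21a interaction (0.18, matched on both), Gpnmb (-0.19 to 0.78 with 1 section left out) and Lgals3 (-0.054 to 0.37). Of 102 named genes called, 43 were called under every alternative in which they were tested. Some of these were too low to be tested in all 24, such as Ehf, Elf3 and Sftpd, each tested in 20. The causes were not tested. Matching on both, the newer method, limma-voom and thinning to 10000 UMIs were added after seeing the data. The duct sums of MAFL rest on 37 and 38 spots.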
